A study of Mus musculus with 40 samples.

Results

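The comparison of lifelong high-fat with lifelong low-fat exposure set 10 male mice that received the HF diet at both stages (HH: HF dam, HF after weaning) against 10 that received the LF diet at both (LL: LF dam, LF after weaning). They are 20 of the 40 animals of the series, of which 39 have values. Methylation was measured in liver DNA at 9 weeks of age by bisulfite sequencing of amplified loci, which the study selected from its expression results. Of the 300 CpGs in the data, 285 at 21 loci had at least 10 reads in at least 6 of the 10 animals of both groups and are compared here.

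All animals were males, of the strain C57BL/6 by the labels and C57BL/6J by the study's methods. Dams ate the LF or HF diet from before pregnancy until weaning, and male offspring were then kept on the LF or the HF diet; the fat was mainly coconut oil. The animals exposed at a single stage are HL (HF dam, LF after weaning, 9 animals with values) and LH (LF dam, HF after weaning, 10 animals). Littermates share a dam and a cage, and the labels do not say which animals were littermates. The p-values set a difference against the spread between these 20 animals, taken as independent. They may therefore be too small. Whole liver was used, so a change in the mix of liver cells and a change within hepatocytes cannot be told apart, and these DNA data hold no marker with which to check the tissue.

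DNA methylation in mammals is mostly the addition of a methyl group to the cytosine of a CpG. CpG-dense promoters and first exons of active genes are usually free of it, and CpG-poor sequence is usually methylated. Imprinted genes carry methylation on the allele of a single parent, set in the germ line, at their control regions. Bisulfite converts unmethylated cytosine to uracil, read as T, so the share of reads that keep a C at a CpG is its methylation level in percent, and a difference between groups is given in percentage points.

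The sequences on which the results turn are shown on the plus strand of the mouse build NCBIM37 (mm9), with the measured CpGs in capitals. The Lep amplicon, at chr6:29009930-29010112, lies upstream of the leptin gene, its CpGs 151 to 265 bases before the start. The first Irs1 locus (Irs1_a), at chr1:82285756-82285858, is in the coding exon and is nearly fully methylated, whereas the second (Irs1_b) is in the 5′ UTR and nearly unmethylated. The 30 bases around the CpG Irs1_b_10, at chr1:82287439-82287468, hold that CpG as the second of 4. The upstream part of the Plagl1 amplicon, at chr10:12810348-12810496, and the Pck1 promoter, at chr2:172978394-172978548, are shown because these loci had the most negative differences. The Nr1i2 amplicon, at chr16:38296287-38296447, had a lower mean in HH as well, with the smallest spread relative to its level.
Lep: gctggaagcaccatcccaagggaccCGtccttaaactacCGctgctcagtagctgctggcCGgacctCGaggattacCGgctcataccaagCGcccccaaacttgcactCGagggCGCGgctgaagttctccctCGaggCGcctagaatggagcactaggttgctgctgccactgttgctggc
Irs1_a: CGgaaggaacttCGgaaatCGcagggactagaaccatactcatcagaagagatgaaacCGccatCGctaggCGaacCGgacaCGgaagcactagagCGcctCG
Irs1_b_10: tggctctctaggCGCGCGCGccttccctcc
Plagl1: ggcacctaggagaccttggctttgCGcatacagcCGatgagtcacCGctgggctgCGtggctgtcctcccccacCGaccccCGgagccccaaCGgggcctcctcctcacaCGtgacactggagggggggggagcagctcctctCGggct
Pck1: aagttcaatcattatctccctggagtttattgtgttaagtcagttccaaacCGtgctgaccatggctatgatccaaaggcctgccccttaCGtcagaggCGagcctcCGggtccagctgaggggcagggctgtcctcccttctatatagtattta
Nr1i2: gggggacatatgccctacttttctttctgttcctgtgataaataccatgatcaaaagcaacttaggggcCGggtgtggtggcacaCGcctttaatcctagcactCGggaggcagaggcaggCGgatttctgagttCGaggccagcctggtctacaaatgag

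CpG density over the stretches as printed was 9.71 CpGs per 100 bases in Irs1_a, 6.01 in Lep and 2.58 in the Pck1 promoter. The Irs1_a stretch was cut from its first to its last measured CpG. The Lep and Pck1 stretches extend past their CpGs, which lowers the density, so the value of Irs1_a cannot be compared with theirs. The letters TTACGTCA of a cAMP response element, the motif through which fasting signals act on Pck1, occur once in the Pck1 stretch, read on either strand (TGACGTAA on the other), 68 bases before the annotated start. The CpG inside it is Pck1_2. The same letters occur in 0.371% of mouse promoters (122 of 32851 in RefSeq, build GRCm38.p6) over the 155 bases before the start. From its first CpG onward the Nr1i2 stretch reads like the mouse B1 repeat, recognised here by its letters and not from an annotation; whether reads of other B1 copies were counted was not tested.

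At single CpGs, HH and LL did not differ past the adjusted threshold. Of the 285 CpGs, 0 passed at an adjusted p of 0.05 (0% called; Student's t-test with 10 values in both groups, an exact permutation test elsewhere, Benjamini-Hochberg over all 285), and the smallest adjusted p was 0.413. At an unadjusted p under 0.05 there were 22 CpGs, of which 16 were higher in HH (5.61% of those tested) and 6 lower (2.11%). Means were higher in HH at 155 CpGs and lower at 130. The median size of the difference was 0.277 points, 63 CpGs differed by more than 1 point and 2 by more than 5. At no CpG were the 2 groups free of overlap.

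**Figure D1:**
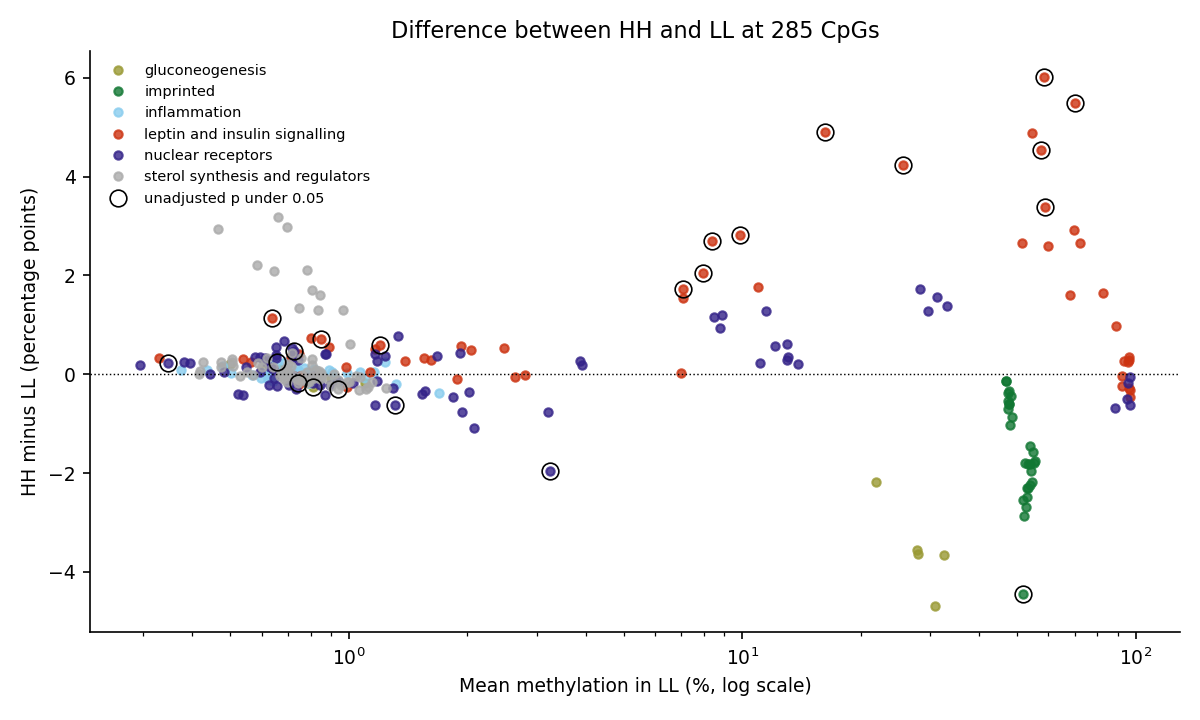
Difference in mean methylation (HH minus LL, percentage points) at each of the 285 CpGs against its mean level in LL (percent, log axis), coloured by the role of the gene, with an unadjusted p under 0.05 circled. Most points lie near 0; the largest differences, 6.01 and 5.49 points, are at Lep CpGs, and the lowest point, -4.69, is Pck1_2. The grey points above the rest at low levels are Ebp CpGs, set by HH replicate 1.

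At the level of whole loci, where the CpGs of an amplicon were averaged in each animal, 2 of the 21 loci passed the adjusted threshold (9.52% called) and both were higher in HH. They were Lepr, which encodes the leptin receptor, and Irs1_b, in the 5′ UTR of the adaptor that relays the insulin receptor's signal. Lep, which encodes leptin, the hormone fat cells release in proportion to fat stores, passed before adjustment only. Both calls ended under limma, limma with runs of animal numbers as a correlated block, a quasi-binomial model of pooled reads and means of runs, where 0 loci passed; the adjusted p was 0.0558 to 0.655 at Lepr and 0.300 to 0.376 at Irs1_b. Irs1_b also missed the threshold with reads pooled over the locus (adjusted p = 0.0542) and with only the CpGs that had values in every animal of the locus (0.345), where exact permutation tests were used. Means were higher in HH at 13 loci and lower at 8.

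**Figure D2:**
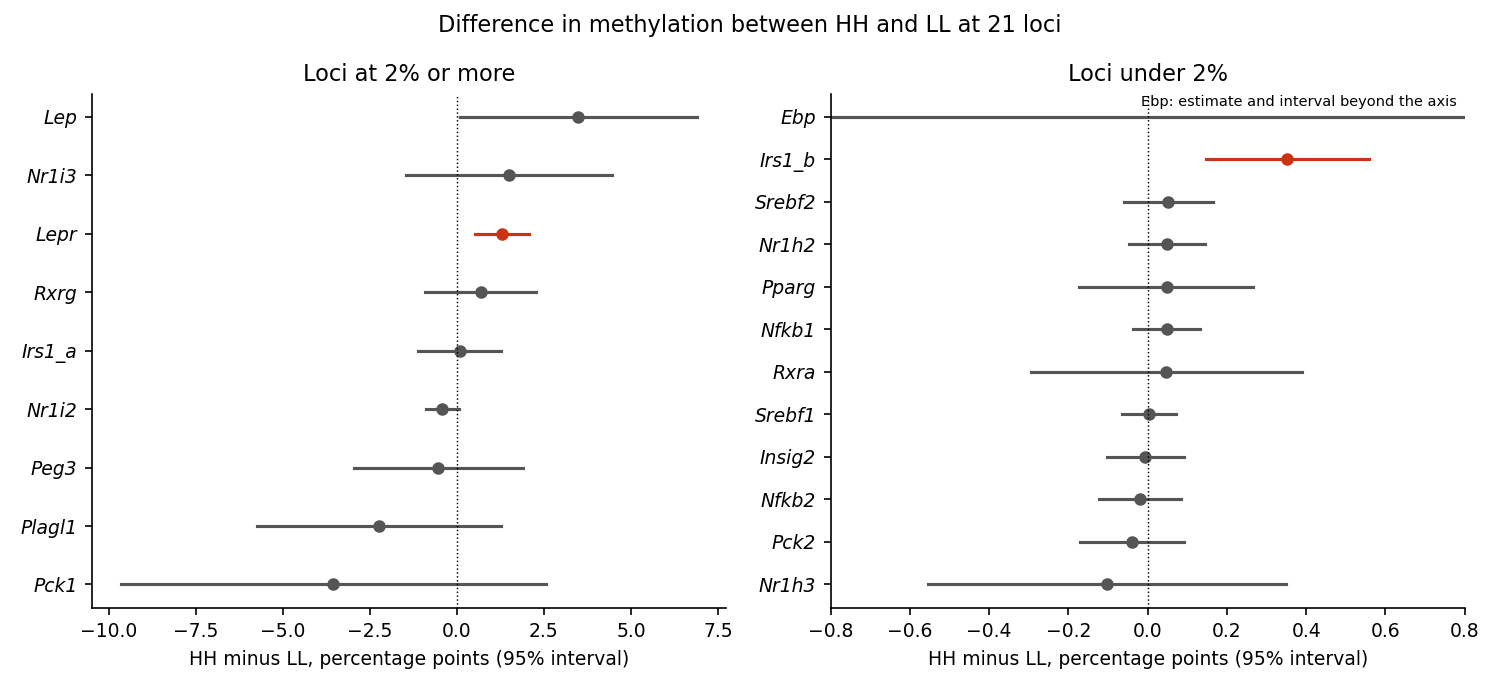
HH minus LL difference of each locus mean in percentage points, with its 95% interval, for loci at 2% or above (left) and below 2% (right); red marks an adjusted p under 0.05. The intervals of Lepr, Lep and Irs1_b exclude 0, and the estimate of Ebp, 2.07 points, lies beyond the right panel's axis, so that only part of its interval is drawn.

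The leptin and insulin signalling loci were the group in which HH was most often higher. All 4 of their loci had a higher mean in HH, against 13 of all 21, as did 44 of their 55 CpGs, against 155 of all 285, with a median difference of 0.516 points against 0.0376 over all 285 CpGs. Of the 22 CpGs with an unadjusted p under 0.05, 13 were in this group, all higher in HH. Of the 4 loci, Irs1_a differed by 0.0779 points and turned sign in 7 of the 20 fits that left out an animal. CpGs of an amplicon are read on the same molecules and are not independent of each other.

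At Lepr, the LL animals ranged from 5.64% to 7.21% with a median of 6.10%. The HH animals ranged from 5.85% to 9.01% with a median of 7.61%. The groups overlapped: 9 of the 10 HH animals lay above the LL median and 7 above the highest LL animal, and 4 LL animals lay below the lowest HH animal. The mean was 6.30% ± 0.589 (SD, n = 10) in LL and 7.59% ± 0.993 (SD, n = 10) in HH, a difference of 1.29 points (95% interval 0.528 to 2.06), or 20.6% of the LL level (Student's t-test, p = 0.00230, adjusted p = 0.0274). The call was close to the threshold: leaving out any 1 of HH replicates 3, 5, 6, 7, 9 and 10 or LL replicates 1, 2, 3, 5, 6, 7, 9 and 10 gave an adjusted p from 0.0502 to 0.0646, with the difference between 1.14 and 1.36 points.

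The Lepr amplicon spans the gene's start, and the difference sat mainly in its more methylated, upstream part. Over the 9 upstream CpGs the mean was 11.1% ± 1.22 in LL and 13.5% ± 1.79 in HH (SD, n = 10 each), 2.41 points apart, and all 9 CpGs were higher in HH. Over the 10 CpGs of the 5′ UTR it was 1.95% ± 0.252 in LL and 2.24% ± 0.359 in HH, with 7 of the 10 higher. The split by position was made with the values known and carries no test. Single CpGs ranged in LL from 1.20% at Lepr_16 to 25.6% at Lepr_1.

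Lepr_2 had the smallest p of all CpGs. It was 8.36% ± 1.44 in LL (SD, n = 10, range 6.82 to 11.5%) and 11.0% ± 2.28 in HH (SD, n = 10, range 8.53 to 16.3%), and every HH animal lay above the LL median (p = 0.00551, adjusted p = 0.413). Lepr_7, the second highest CpG of the amplicon, was 16.2% ± 2.98 in LL and 21.1% ± 3.99 in HH, 4.90 points apart (p = 0.00606, adjusted p = 0.413), and 8 HH animals exceeded the highest LL animal. Lepr_8 was 7.08% ± 1.07 in LL and 8.80% ± 1.48 in HH (p = 0.00786, adjusted p = 0.413), and Lepr_6 was 7.93% ± 1.77 and 9.97% ± 1.98 (p = 0.0254). Lepr_1 was 25.6% ± 3.27 in LL and 29.8% ± 4.24 in HH (p = 0.0223, adjusted p = 0.570). Lepr_3, singled out after its values were seen, had nearly the same mean in both groups, 6.98% in LL and 7.01% in HH.

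**Figure D3:**
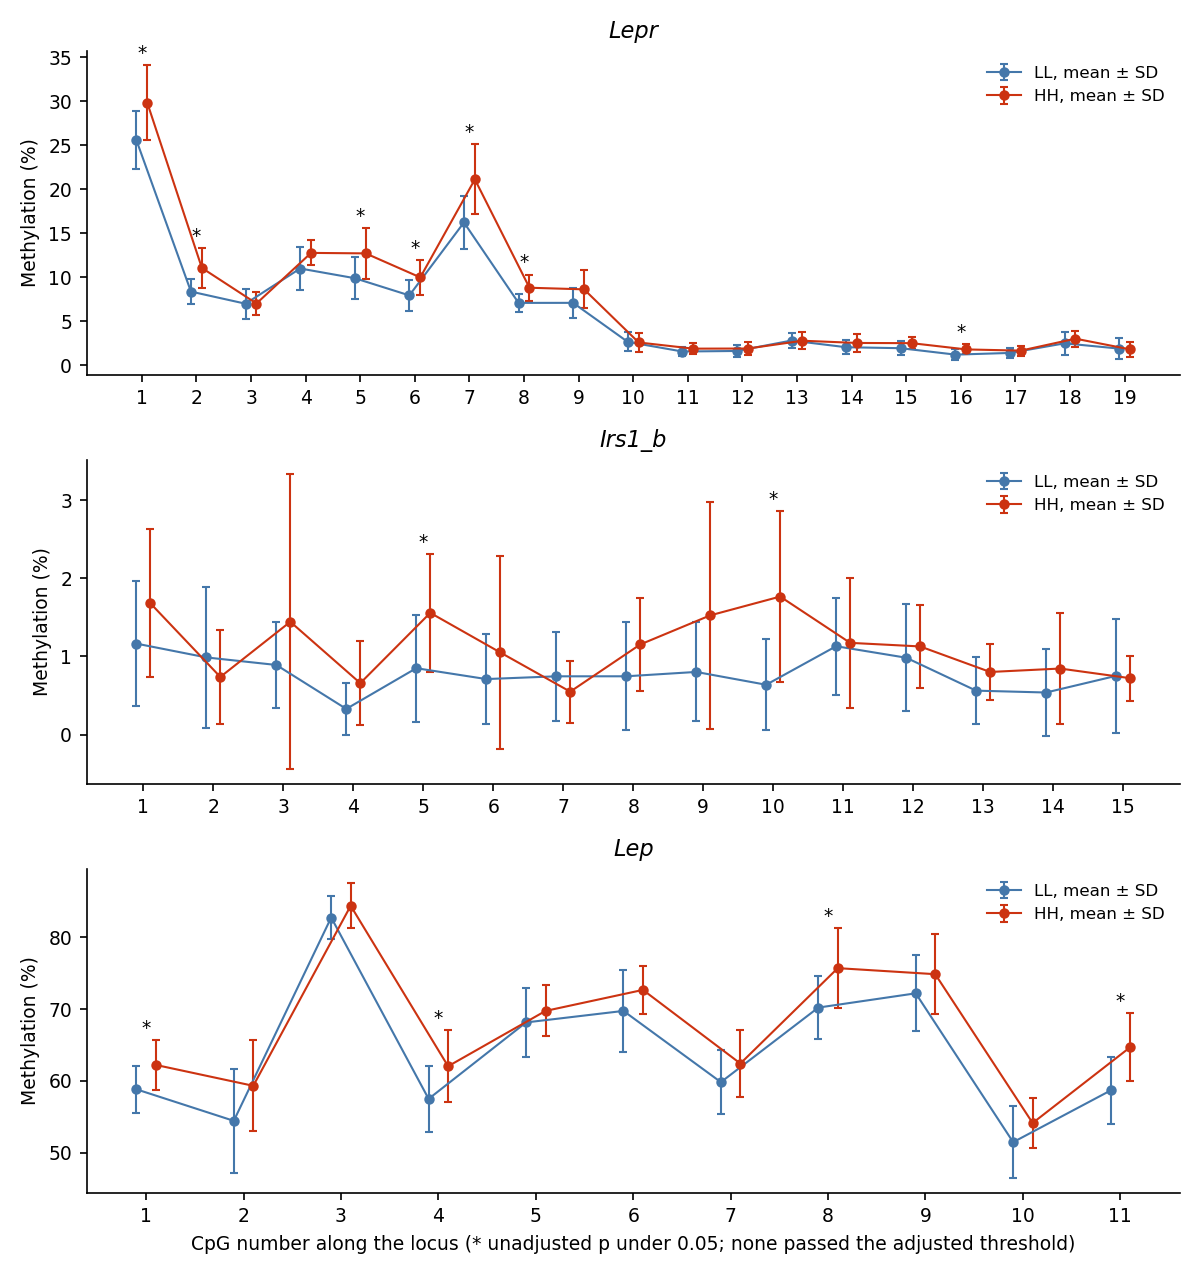
Mean methylation in percent (± SD) of each CpG, by its number along the amplicon, in LL and HH at Lepr, Irs1_b and Lep; an asterisk marks an unadjusted p under 0.05. HH lies above LL at 16 of 19 Lepr CpGs, 12 of 15 Irs1_b CpGs and all 11 Lep CpGs.

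At Irs1_b, amplified from chr1:82287290-82287526, levels were low in every animal. LL ranged from 0.537% to 1.12% (8 animals, since LL replicates 7 and 9 had no value) and HH from 0.867% to 1.52% (10 animals). All 10 HH animals lay above the LL median and 5 above the highest LL animal. The highest of them, HH replicate 7 at 1.52%, rested on 12 methylated of 792 reads. It had reads at only some of the CpGs, so its value averages fewer CpGs than those of the other animals. The means were 0.789% ± 0.189 in LL (SD, 8 animals) and 1.14% ± 0.216 in HH (SD, 10 animals). They differed by 0.352 points (95% interval 0.147 to 0.560, exact permutation test, p = 0.00261, adjusted p = 0.0274). Both means lay within the 0.650% to 1.67% spanned by group means at the 10 loci under 2% other than Irs1_b and Ebp. The Irs1_b level also holds any cytosine left unconverted by bisulfite, and no conversion rate was measured.

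The locus was shallowly sequenced, with per-animal median depths from 118 to 1640 reads. Animals varied 2.00 times as much as binomial counting alone would give in LL, and 1.19 times in HH (ratio of variances). These ratios take every read as independent. Median reads per CpG stepped from 362 at Irs1_b_2 to 674 at Irs1_b_3, and back from 674 at Irs1_b_8 to 356 at Irs1_b_9. Similar steps occurred at other loci, as from 6277 at Insig2_8 to 12566 at Insig2_9 and from 22188 at Irs1_a_3 to 11090.5 at Irs1_a_4. The cause of these steps, and whether the reads there are separate molecules, was not tested. The difference between HH and LL at the locus corresponds to few methylated reads per CpG. Leaving out any 1 of HH replicates 3, 5, 6, 7 and 10 or LL replicates 1, 2, 5, 6, 8 and 10 gave an adjusted p from 0.0502 to 0.0646 (exact permutation tests), with the difference between 0.311 and 0.376 points. Irs1_b_10, shown above, was 0.638% ± 0.581 in LL (8 animals) and 1.77% ± 1.09 in HH (9 animals; exact permutation test, p = 0.00880, adjusted p = 0.413). Irs1_a, in the coding exon of the same gene, was 94.46% ± 1.32 in LL and 94.54% ± 1.22 in HH (n = 10 each), a difference of 0.0779 points (95% interval -1.12 to 1.27; p = 0.893).

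At Lep, LL animals ranged from 58.7% to 70.0% with a median of 65.4%, and HH animals from 61.7% to 72.7% with a median of 67.2%. The ranges overlapped broadly, with 8 of 10 HH animals above the LL median and 3 above the highest LL animal. The mean was 64.0% ± 3.71 in LL and 67.5% ± 3.55 in HH (SD, n = 10 each), a difference of 3.49 points (95% interval 0.0792 to 6.90; p = 0.0454, adjusted p = 0.318), so the locus did not pass. All 11 CpGs were higher in HH, although from widely different levels, 51.5% at Lep_10 to 82.7% at Lep_3 in LL. The difference was largest at Lep_11, the last CpG of the printed amplicon, with 58.7% ± 4.62 in LL and 64.7% ± 4.73 in HH (6.01 points, p = 0.0101, adjusted p = 0.413). Lep_8 was 5.49 points higher in HH (p = 0.0259) and Lep_2 4.88 points (p = 0.125). Depth at Lep was lower in HH than in LL, at 80849 against 157423 reads per CpG (permutation test, p = 0.00830, adjusted over the 21 loci 0.124), and its part in the difference was not tested.

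**Figure D4:**
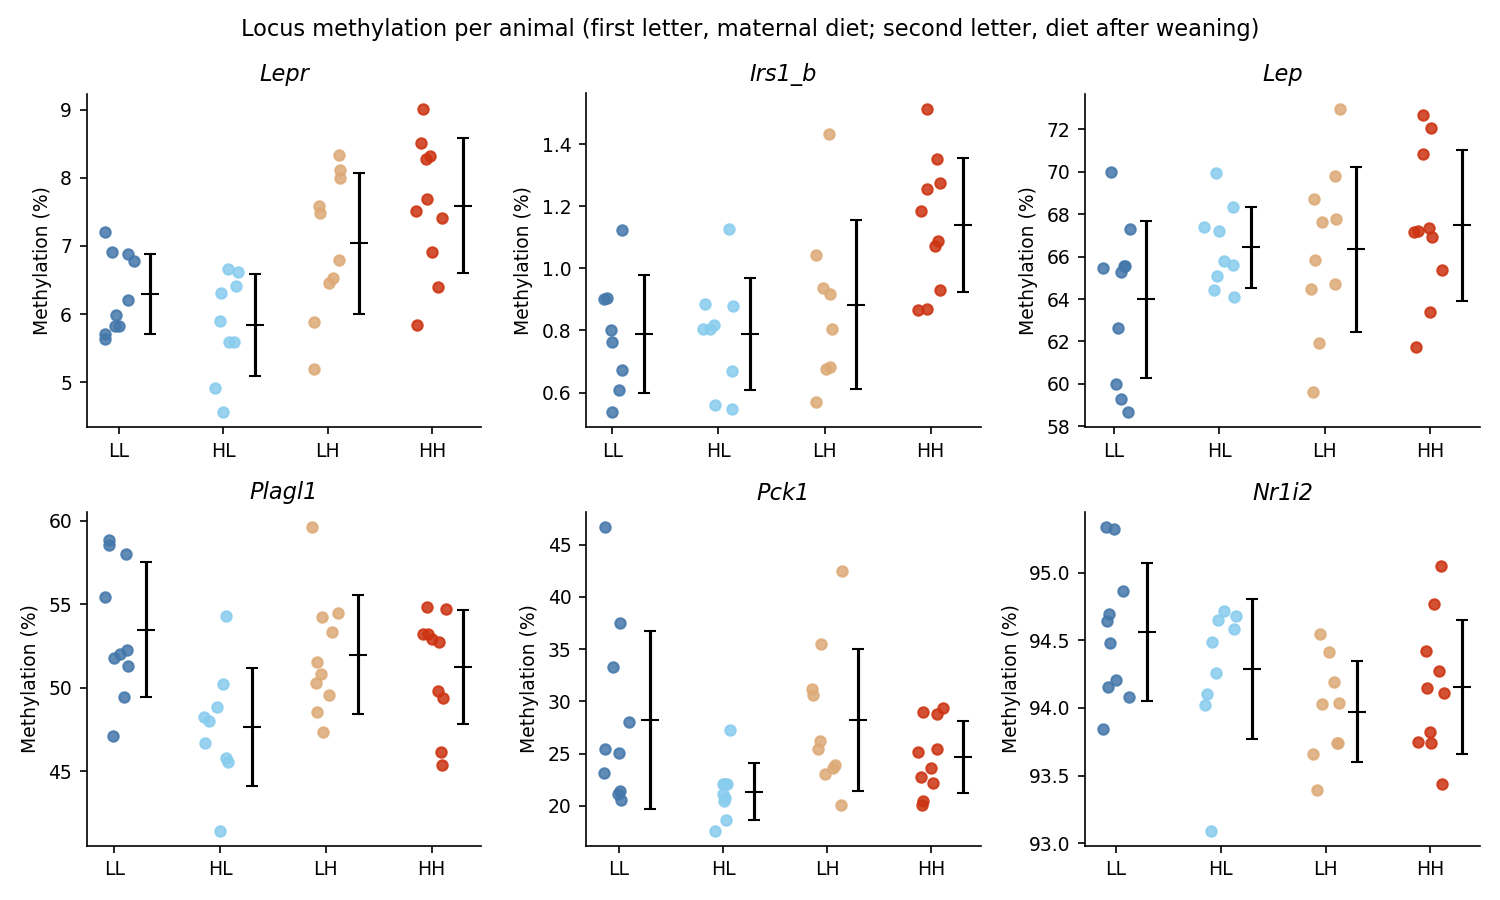
Locus mean methylation in percent of each animal in LL, HL, LH and HH at Lepr, Irs1_b, Lep, Plagl1, Pck1 and Nr1i2, with the group mean ± SD as bars; the axes do not start at 0. HH has the highest mean of the 4 groups at Lepr, Irs1_b and Lep, and its animals overlap those of LL at every locus shown.

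The single exposures place the HH means among the 4 groups. HL, LH and HH are all set against the same LL animals, so their differences share those values. At Lepr the mean was 5.84% ± 0.746 in HL (SD, 9 animals) and 7.04% ± 1.03 in LH (10 animals), against 6.30% in LL and 7.59% in HH. At Irs1_b it was 0.788% in HL, 0.883% in LH, 0.789% in LL and 1.14% in HH. At Lep both single exposures, 66.4% ± 1.92 in HL and 66.3% ± 3.89 in LH, lay between LL and HH.

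Departure of HH from the sum of the single exposures, HH minus HL minus LH plus LL, was tested at each locus by permuting residuals of the additive model over all 4 groups. It passed at 0 of 21 loci after adjustment and at 1, Plagl1, before it (5.07 points, permutation p = 0.0390, adjusted p = 0.580). At Lepr it was 1.01 points (permutation p = 0.0765).

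The imprinted loci had lower means in HH, neither passing the test, and at Peg3 the sign turned without HH replicate 6 (0.0440 points). Plagl1 encodes a zinc finger transcription factor that slows growth of cells, and Peg3 a zinc finger protein expressed from the paternal allele; both are known for methylation on the maternal allele only, and both were near the middle of the scale here. All 28 CpGs of the 2 loci had a lower mean in HH, with a median of -1.77 points, and 1 had an unadjusted p under 0.05. At Plagl1 the LL animals ranged from 47.1% to 58.9% and the HH animals from 45.3% to 54.9%, overlapping over most of that span. Their medians were in the opposite order to the means, 52.1% in LL and 52.8% in HH, and 6 of 10 HH animals lay above the LL median. The means were 53.5% ± 4.04 and 51.2% ± 3.41 (SD, n = 10 each), a difference of -2.24 points (95% interval -5.75 to 1.27; p = 0.197, adjusted p = 0.649). HL was the lowest group there, at 47.7%, and LH was at 52.0%. At Peg3 (5′ UTR and intron, chr7:6682889-6683077) the means were 47.6% ± 2.57 in LL and 47.1% ± 2.58 in HH (95% interval of the difference -2.95 to 1.89; p = 0.652), with 45.4% in HL and 47.1% in LH.

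The gluconeogenesis loci did not pass either. Pck1 encodes the cytosolic and Pck2 the mitochondrial phosphoenolpyruvate carboxykinase, the enzyme that commits carbon to glucose synthesis. At Pck1 the LL animals ranged from 20.6% to 46.7% and the HH animals from 20.1% to 29.3%. Most of the LL range came from its upper end, where 3 LL animals (37.5%, 33.3% and 46.7%) exceeded every HH animal. The means were 28.2% ± 8.52 in LL and 24.7% ± 3.47 in HH, -3.54 points apart (95% interval -9.65 to 2.57; p = 0.239, adjusted p = 0.649), and the HH SD was 0.407 times that of LL without passing the test of spread (permutation p = 0.168). With deviations taken from the group mean and not the median, that test gave p = 0.0200 before and 0.210 after adjustment (permutation test). Pck1_2, inside the TTACGTCA match, was 30.9% in LL and 26.2% in HH (p = 0.180). Pck2, measured mostly in its 5′ UTR at chr14:56159062-56159241, was 0.784% in LL and 0.744% in HH (p = 0.530), and its CpG Pck2_3 was 0.812% ± 0.172 in LL and 0.560% ± 0.195 in HH, with 9 of 10 HH animals below the LL median (p = 0.00653, adjusted p = 0.413).

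Nuclear receptors supplied 7 of the 21 loci, of which 5 had higher means in HH, and 46 of their 79 CpGs did. None passed after adjustment, and before it 2 of their CpGs were higher and 2 lower. Nr1i2 and Nr1i3 encode PXR and CAR, receptors that switch on drug and bile acid metabolism in liver. Nr1i2 was 94.56% ± 0.509 in LL and 94.15% ± 0.496 in HH (-0.411 points, 95% interval -0.883 to 0.0616; p = 0.0843, adjusted p = 0.443). Nr1i3, 585 to 716 bases upstream of its start at chr1:173143341-173143541, was 30.6% ± 3.67 in LL and 32.1% ± 2.51 in HH (p = 0.305). Rxrg, encoding a retinoid X receptor and measured in a UTR and intron at chr1:169548399-169548610, was 11.4% ± 1.88 in LL and 12.0% ± 1.52 in HH (p = 0.383).

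The other 4 receptor loci were at the low end of the scale: Nr1h2 around its start (chr7:51809225-51809457), Nr1h3 in 5′ UTR and intron (tested CpGs within chr2:91035042-91035389, which reach past the amplicon placed from the primers), Rxra in an intron (chr2:27532251-27532434) and Pparg in 5′ UTR and intron (chr6:115311292-115311486). Nr1h2 and Nr1h3, the oxysterol-sensing liver X receptors, differed by 0.0484 and -0.102 points (p = 0.299 and 0.640). Rxra, the partner of most of these receptors in liver, differed by 0.0469 points (p = 0.777). Pparg, the fat cell differentiation factor, differed by 0.0480 points (8 LL and 7 HH animals, exact permutation test, p = 0.655). At the CpG level, Nr1h2_2 was 0.725% ± 0.206 in LL and 1.19% ± 0.466 in HH (p = 0.0102, adjusted p = 0.413), whereas Nr1h3_8 was lower in HH, at 0.692% ± 0.502 against 1.31% ± 0.531 (p = 0.0159, adjusted p = 0.565).

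The sterol and inflammation loci were nearly unmethylated in both groups. Srebf1 and Srebf2 encode the transcription factors that drive fatty acid and cholesterol synthesis, Insig2 the protein that holds them inactive, and Nfkb1 and Nfkb2 subunits of NF-κB. The amplicons were at chr11:60033831-60034019 (Srebf1, coding exon and intron), chr15:81977418-81977605 (Srebf2, upstream), chr1:123224256-123224521 (Insig2, 5′ UTR), chr3:135353803-135353983 (Nfkb1, intron) and chr19:46379959-46380221 (Nfkb2, almost all intron). HH minus LL was 0.00346 points at Srebf1, 0.0522 at Srebf2, 0.0476 at Nfkb1 and -0.0189 at Nfkb2 (p from 0.255 to 0.915), and -0.00567 at Insig2 (10 LL and 9 HH animals, exact permutation test, p = 0.903). Apart from Ebp and Irs1_b, the 10 loci under 2% differed by at most 0.102 points, and their mean level per animal was 0.867% in LL and 0.874% in HH (permutation test, p = 0.843). That level also holds any cytosine left unconverted by bisulfite, and no conversion rate was measured.

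Ebp, the X-linked gene of a sterol isomerase of cholesterol synthesis, measured in its 5′ UTR at chrX:7769907-7770086, owed its mean to a single animal. HH replicate 1 was at 20.8% with a median of 186610 reads per CpG, and the other 9 HH animals lay between 0.607% and 1.03%. The LL animals lay between 0.567% and 0.901%. The means were 0.729% ± 0.0945 in LL and 2.80% ± 6.33 in HH (p = 0.316), and without that animal the difference was 0.0656 points.

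Spread between animals was compared by the mean absolute deviation from the group median. The SD was larger in HH at 7 of 21 loci. Before adjustment 2 loci passed: Ebp, through HH replicate 1 (SD ratio HH to LL 67.0, permutation p = 0.0263), and Insig2, where HH varied less (SD ratio 0.550, 10 LL and 9 HH animals, exact permutation p = 0.0342). After adjustment 0 passed (both 0.359).

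Total reads over CpGs ranged from 2727166 to 8669984 in HH and from 3075215 to 15531697 in LL. The mean of the median depths was 7909 reads in HH and 10517 in LL (permutation test, p = 0.257). At most loci mean depth was lower in HH, and at Irs1_b, Plagl1 and Pparg it was higher. Besides Lep, depth had an unadjusted p under 0.05 at Nr1i3, 26642 reads in HH against 37552 in LL (permutation test, p = 0.0244, adjusted p = 0.171). So did Pparg, at 1416.5 in 7 HH against 355.3 in 8 LL animals (exact permutation test, p = 0.0118, adjusted p = 0.124). No pair of libraries was alike enough to be a duplicate, the closest differing by 0.902 points per CpG on average. At the median locus this ratio of the variance between animals to counting variance was 52.3 in LL and 41.4 in HH. These ratios treat PCR reads as independent molecules, which they are not, so they do not show what set the precision.

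The labels number the animals, and the numbers fall into 4 runs of neighbours in each group. Whether a run shares a cage or a litter is not stated. Taking each run as 1 value, Irs1_b and Lep had the smallest p that 4 against 4 allows (exact permutation test, p = 0.0286, adjusted p = 0.300), Lepr was 0.986 points higher in HH (exact permutation test, p = 0.200), and 0 loci passed after adjustment. That 0 was nearly fixed by the design, since a few loci at the smallest possible p cannot pass after adjustment over 21. For Lepr the LL run means lay between 6.15% and 6.60%. The HH run means were 5.85% for a run of 1 animal, 6.94%, 8.34% and 8.07%. The intraclass correlation of animals within runs had a median of 0.0133 over the 21 loci and was above 0 at 11. It was 0.421 at Lepr, -0.156 at Irs1_b and -0.259 at Lep.

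**Figure D5:**
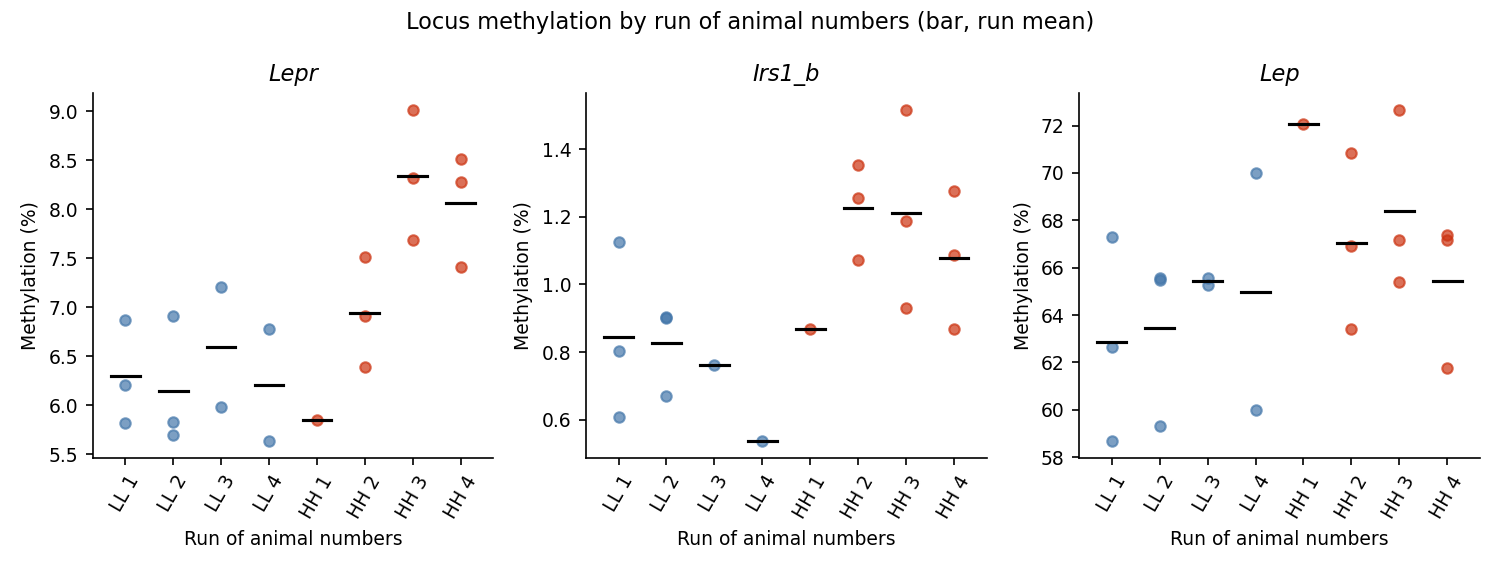
Locus mean methylation in percent of each animal at Lepr, Irs1_b and Lep, arranged by run of animal numbers in LL and HH, with the mean of each run. At Lepr the HH runs spread from 5.85% to 8.34% whereas the LL runs stay between 6.15% and 6.60%.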

How the data were processed

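Liver DNA of each animal was bisulfite-treated, 22 loci were amplified by PCR, and the products were pooled per animal, barcoded and sequenced. The submitters' processing notes name Bismark, with no version, and mm9. The authors deposited a table of counts, methylated and total reads for every CpG in each animal, and a table of the methylated fraction. The deposited fraction equalled the ratio of the deposited counts within 5e-16. Values with 0 reads were treated as missing. All 300 positions were CpGs in NCBIM37, used with the GENCODE M1 annotation. For Lepr, sequence and coordinates are left out.

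Groups follow the labels (maternal diet, then post-weaning diet). Percent methylation was 100 times methylated over all reads, CpGs within 1000 bp formed a locus, and a locus value was the mean over its CpGs. HH and LL were compared by 2-sided Student's t-test with 10 values in both groups and otherwise by an exact permutation test. Depth, spread and non-additivity used 100000 resamples. Within each family of tests the Benjamini-Hochberg adjustment was used (threshold 0.05). All loci are named, grouped by role, with full values for those with a small p or a large difference. Members and lists were chosen with earlier results of these data known. The scripts were tested on simulated data.

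Alternatives were the Wilcoxon test, exact tests throughout, a quasi-binomial read model, limma (log2 ratio of methylated to unmethylated reads, each plus 1) with and without runs of animal numbers as a block, run means, minima of 100 and 1000 reads, values in at least 9 of 10, all 20 or at least 36 of 40 animals, reads pooled over a locus, deviation from the group mean, and leaving out each animal. Chosen after seeing the data were the quasi-binomial model at loci, CpGs with values in every animal of a locus, and the low-level mean without Ebp, and without Ebp and Irs1_b. Left out of the tests were 15 CpGs: 11 of Igf2, and 4 at Srebf1, Nr1h3 and 6030445D17Rik. Tools were limma 3.58.1 in R 4.3.3, and scipy 1.17.1, statsmodels 0.14.6, pandas 2.3.3, numpy 2.4.6 and matplotlib 3.10.9 in Python 3.11.15.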

Additional observations from a re-analysis of the deposited data

Results flagged for a closer look

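Of 44 groups of locus values checked for a sample far from the others, 4 were flagged, and chance alone would flag about 2. At Ebp, HH replicate 1 had 20.8% methylation against 1.03% in the nearest other HH animal, on a median of 186610 reads per CpG. At Nr1h3, HH replicate 5 had 2.78% against 1.90% in the nearest animal, on 347 reads. At Pck2, HH replicate 7 had 0.478% against 0.677%, on 12031 reads. At Rxra, LL replicate 10 had 1.92% against 0.995%, on 222 reads.

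Signal above the level that 0 reads would allow was also present at CpGs outside the comparison. The 11 CpGs of Igf2, an imprinted growth factor gene, had 3.36% over their pooled reads. The mean was 3.43% ± 0.575 in HH (SD, n = 5) and 3.25% ± 0.294 in LL (SD, n = 8). The single CpG of 6030445D17Rik, at position 136020243 of chromosome 4, had 9.43% (20 of 212 reads), with values in 2 HH animals and 0 LL animals. Nr1h3_1 had 0.465% (7 of 1506 reads), below the mean level of the loci under 2%, with 0% in the 2 HH animals that had a value.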

How the results depend on the processing

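No CpG passed the adjusted threshold under any alternative, leaving out each animal included. The count at an unadjusted p under 0.05 was 22; it was 35 under the quasi-binomial model, 9 with run means, and 16 to 25 with 1 animal left out. The count of loci past the adjusted threshold was 2, as it was under the Wilcoxon and exact tests. It was 1 with a minimum of 1000 reads, with values in at least 9 of 10 or at least 36 of 40 animals, with pooled reads and with CpGs present in every animal of a locus. It was 0 under the quasi-binomial model, both limma fits and run means, and 0 to 2 with 1 animal left out. Before adjustment it was 2 to 3 with 1 animal left out. The adjusted p of Lepr was 0.0118 to 0.0646 with 1 animal left out (exact permutation tests, 6 of 20 passed). Under the quasi-binomial model it was 0.197, with limma 0.0558, with the block of runs 0.0794 and with run means 0.655. That of Irs1_b was 0.0173 to 0.0646 (7 of 20 passed; LL replicates 7 and 9 have no value there, so leaving them out moved only the adjustment), 0.0542 with pooled reads, 0.345 with CpGs present in every animal, 0.308 with limma, 0.363 with the block of runs, 0.300 with run means and 0.376 under the quasi-binomial model. Irs1_b could not be fitted with a minimum of 1000 reads or in 9 of 10 or 36 of 40 animals. The cause of these changes was not tested. For spread, 2 loci passed before adjustment (0 to 3 with 1 animal left out) and 0 after it. With deviations from the group mean, 3 passed before adjustment (Ebp, Pck1 and Insig2) and 1 after it, Ebp. At Ebp, HH replicate 1 (20.8%) moved the HH mean to 2.80%, so it also enlarged the deviations of the other HH animals.

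Neither Lepr, Irs1_b nor Lep changed sign, nor did any of the 13 CpGs with the 10 smallest p-values or the 5 largest differences; other CpGs were not refitted singly. At 8 loci the difference did, with p of at least 0.534. In points these were Insig2 0.00618 and Nfkb2 0.0123 with run means, and Srebf1 -0.00348 with pooled reads and under the quasi-binomial model. On limma's log2 scale, without and with the block of runs, they were Insig2 0.0181 and 0.0188, Nr1h3 0.0168 and 0.0160, Pparg -0.136 and -0.142, and Srebf1 -0.00214 and -0.00159. With 1 animal left out, the range over the 20 fits was -0.0249 to 0.0120 at Insig2, -0.213 to 0.332 at Irs1_a, -1.003 to 0.0440 at Peg3, -0.00300 to 0.114 at Pparg, -0.00617 to 0.162 at Rxra and -0.0160 to 0.0162 at Srebf1. No paired analysis was possible because the labels give no number that pairs HH with LL animals. Counting variance was largest relative to the variance between animals at Irs1_b and Pparg, where the second was 0.793 to 2.00 times the first. At loci of 2% or more the half-width of the interval, which is not adjusted, was 0.472 to 6.11 points. A difference below its half-width has an interval that includes 0. A larger one could still miss the adjusted threshold, as Lep did (3.49 points, Student's t-test, adjusted p = 0.318).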
